A study of Danio rerio with 26 samples.

Results

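The genes that hold zebrafish keratinocytes together, anchor them to the basement membrane and build their outer barrier were read in RNA from the skin of 26 male fish, with 1 library per fish. They were chosen by symbol from a list of 32 genes, ignoring case, where a capital symbol without a final a or b also counted. Of these genes, 31 had an identifier and evplb had none, and 35 of the 32105 identifiers in the count tables matched, 25 by the symbol and 10 by the capital form. They were kept apart as 9 identifiers of the basal layer, 13 shared by the layers and 13 of the surface layers. JUP, DSP and TGM1 each stand for 2 identifiers that the symbol does not tell apart, so those are given with their identifier. The counting rule for reads shared by near-identical copies is not given in the sources used here, so the split of reads between paralogues is uncertain.

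Every fish was treated with rotenone, which blocks complex I of the respiratory chain, and no untreated fish were included, so no value measures rotenone against a baseline. At 1 year of age, 9 fish received 3.75 nM and a further 9 received 37.5 nM, all of the strain AB JxTu, and 8 fish of 3 years received 37.5 nM and were of the strain AB JxTu Tg(flk:mCherry). Age and the transgenic strain label coincide and cannot be told apart. The numbers in the fish titles form a low run (164 to 181, 12 fish) and a high run (189 to 202, 14 fish) that the labels do not explain, with 4 low and 5 high fish in each 1-year group and 4 of each at 3 years.

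In zebrafish skin, basal keratinocytes are held to the basement membrane by hemidesmosomes, in which integrin alpha 6 beta 4 and collagen XVII bind laminin. Keratinocytes of all layers are joined to each other by adherens junctions, built on E-cadherin, and by desmosomes, in which plakoglobin and plakophilins link the cadherins to desmoplakin and so to keratin. In the surface layers, plakins and transglutaminase are known from mammals as parts of the cornified envelope, and tight junctions seal the outermost cells against the water.

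Library depth lay between 25454674 and 35162246 counts. The tissue label was checked against keratinocyte markers: krt5 had a median of 27800 CPM (counts scaled to a common library size, TMM normalised) over the 26 fish, krt4 4590 and cldni 1280. The other keratinocyte markers chosen for this check were lower, with medians of 138 CPM for cldne, 24.7 for pou2f3 and 0.569 for cyt1. Markers of other cell types were present as well, with a median of 3530 CPM for the dermal collagen col1a2 and 2120 for the muscle actin actc1b. The summed level of 16 muscle markers was 63500 CPM in replicate 3 of the 3-year fish, and its median over the 8 fish of that group was 9410 CPM. Among the genes of this report, that fish had the lowest shared-member mean of all fish, at 7.17 on the log2 CPM scale. In bulk skin, fewer cells of a type and less RNA per cell cannot be told apart.

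Per length of gene, the surface S100 protein icn (ictacalcin) stood highest, with 12830 CPM per kb as the mean of 26 fish. ANXA1, a membrane-binding annexin, followed with 1568 CPM per kb and icn2 with 1466, so the 3 highest levels per length all belonged to surface genes. Next came the adhesion molecule epcam with 745 CPM per kb, then integrin itga6b with 585, perp, a tetraspan protein of mammalian desmosomes, with 482, and plakoglobin (JUP ENSDARG00000070787) with 456. The level of integrin itgb4 was 335 CPM per kb, that of plakophilin pkp3a 289 and that of desmoplakin (DSP ENSDARG00000022309) 236. The 13 surface identifiers summed to 16450 CPM per kb, the 13 shared ones to 2558 and the 9 basal ones to 1383. The medians ran the other way, with 54.3 CPM per kb for surface, 80.7 for shared and 128 for basal identifiers.

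**Figure D1:**
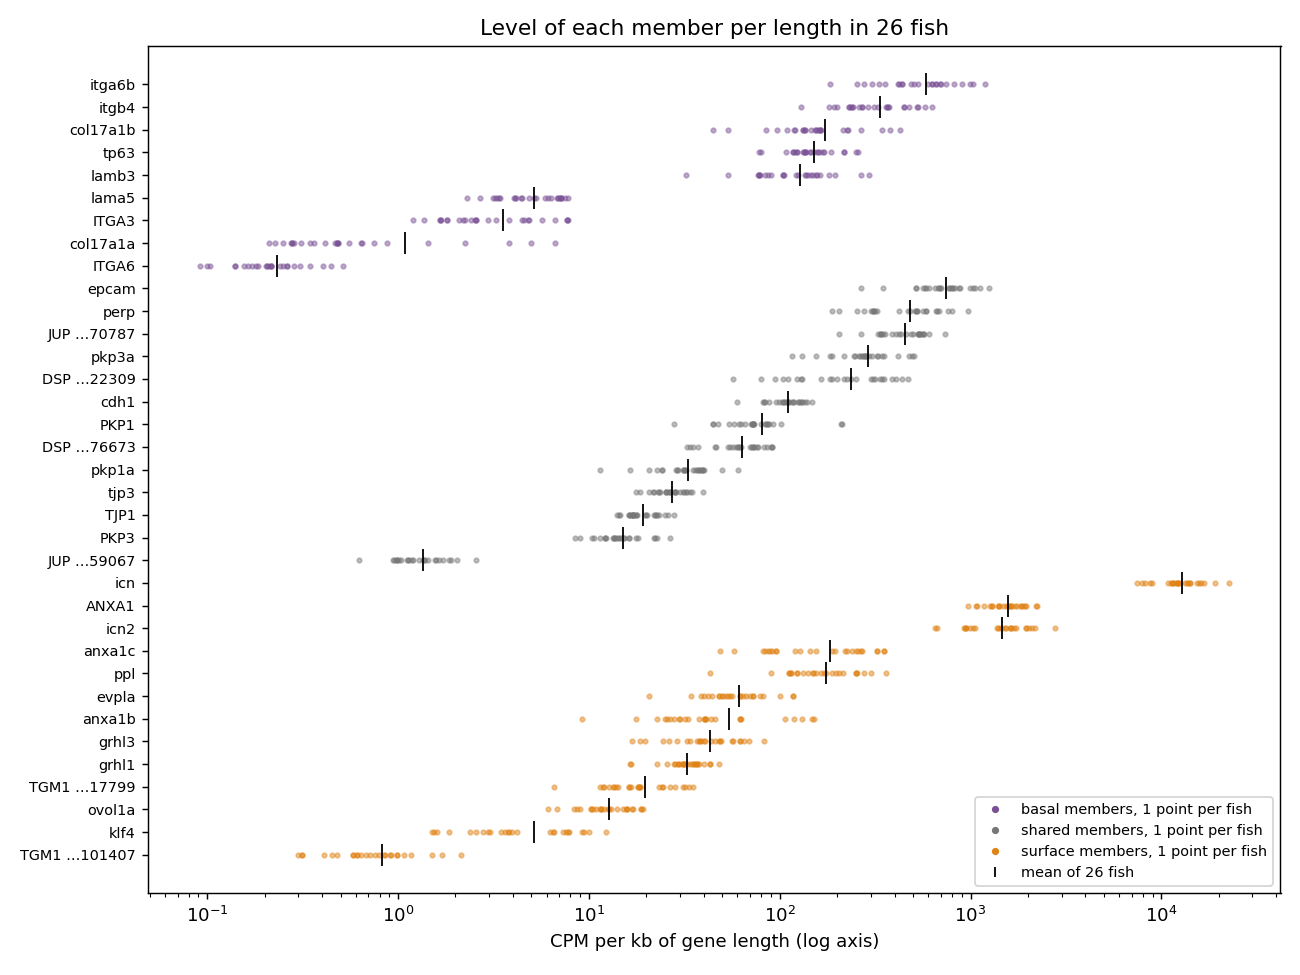
Level of each of the 35 identifiers per kb of gene length on a log axis, with 1 point per fish (26 fish) and a bar at the mean, ordered within the basal, shared and surface layers; JUP, DSP and TGM1 identifiers are shown by their last digits. The surface gene icn has the highest mean, 12830 CPM per kb, and ITGA6 the lowest, 0.231 CPM per kb.

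Paralogues differed widely in level. Collagen XVII came almost wholly from col17a1b, with 174 CPM per kb against 1.09 for col17a1a. Integrin alpha 6 came from itga6b, with 585 CPM per kb against 0.231 for ITGA6, the lowest of the 35. JUP ENSDARG00000059067 had 1.34 CPM per kb where the other plakoglobin identifier had 456, and TGM1 ENSDARG00000101407 had 0.820 where TGM1 ENSDARG00000017799, a transglutaminase that cross-links envelope proteins, had 19.6. The DSP identifiers stood closer, at 236 and 63.6 CPM per kb. Of the regulators, tp63, the p53 family factor that maintains basal keratinocytes, had 151 CPM per kb, grhl3 43.2, grhl1 32.6, ovol1a 12.8 and klf4 5.16.

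Fish differed most in col17a1a, where the highest fish had 31.8 times the CPM of the lowest, and in anxa1b, at 16.5 times. In col17a1a the fish with high levels were few: of the 9 fish at 1 year and 3.75 nM the median was 2.26 CPM and the highest 31.1. Fish differed least in the tight junction scaffold TJP1, at 2.00 times, in its relative tjp3 at 2.26, in ANXA1 at 2.31 and in E-cadherin (cdh1) at 2.47.

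The comparison of 3-year with 1-year fish at 37.5 nM asks how skin differs with age at 1 concentration. None of the 35 identifiers passed the threshold (edgeR's quasi-likelihood test, Benjamini-Hochberg adjusted p under 0.05 over 18935 genes), where 1.27% of all genes tested did. DESeq2 also called 0 of them. At an unadjusted p under 0.05, 2 of 35 stood out, ITGA6 and lama5, against 20.4% of all genes tested. Log2 fold changes of the members lay between -0.55 and 0.70 with a median of -0.01, 17 positive and 18 negative, beside a median of 0.03 over all genes. The 95% interval lay within a 2-fold difference for 24 of 35, and for the other 11 a 2-fold difference was not excluded.

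In the basal layer, ITGA3, the integrin alpha chain that binds laminin outside hemidesmosomes, ranged from 4.17 to 26.6 CPM in 1-year fish, with a median of 8.77. In 3-year fish it ranged from 6.23 to 26.9 CPM with a median of 18.2, a log2 fold change of 0.70 ± 0.33 (SE, adjusted p = 0.249). These groups overlapped over almost the whole range. ITGA6 had 0.577, 0.833 and 1.18 CPM as lowest, median and highest at 1 year and 0.757, 1.05 and 2.12 at 3 years, a log2 fold change of 0.60 ± 0.24 (adjusted p = 0.180). Its counts were low, between 10 and 53 per fish. The laminin chain lama5 had 35.8, 50.7 and 77.2 CPM at 1 year and 30.4, 78.5 and 88.5 at 3 years, a log2 fold change of 0.42 ± 0.19 (adjusted p = 0.220). The lowest of all 17 fish in lama5 was the 3-year replicate 3 with the high muscle sum. The abundant hemidesmosome integrins had negative values, -0.49 ± 0.25 for itgb4 (adjusted p = 0.285) and -0.46 ± 0.30 for itga6b (adjusted p = 0.398). Among the low fish alone itgb4 and itga6b stood at 0.04 ± 0.27 and -0.02 ± 0.32. Among the high fish alone they stood at -0.75 ± 0.27 and -0.64 ± 0.36, neither called. Median itgb4 was 3525 CPM at 1 year and 2410 at 3 years, with ranges of 1708 to 5919 and 1820 to 4234 CPM.

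Of the shared members, perp had 800, 1649 and 3065 CPM as lowest, median and highest at 1 year and 594, 978 and 2413 at 3 years, a log2 fold change of -0.43 ± 0.30 (adjusted p = 0.432). PKP3 had a log2 fold change of 0.30 ± 0.15 (adjusted p = 0.271) and epcam one of -0.29 ± 0.24 (adjusted p = 0.510). The epcam levels were 828.6, 1133 and 1494 CPM at 1 year and 378, 841 and 1783 at 3 years, so the older fish spread to both sides of the younger ones. The cdh1, TJP1 and tjp3 values were -0.21, -0.04 and -0.04.

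In the surface layer, anxa1b had a log2 fold change of 0.61 ± 0.39 (adjusted p = 0.381), klf4, a zinc finger regulator of the differentiated epidermis in mammals, one of -0.55 ± 0.31 (adjusted p = 0.310) and TGM1 ENSDARG00000101407 one of -0.48 ± 0.35 (adjusted p = 0.454). The klf4 levels were 4.20, 6.66 and 12.8 CPM at 1 year and 2.64, 3.87 and 11.5 at 3 years. The most abundant surface genes differed little between ages, with 0.14 ± 0.17 for icn, 0.22 ± 0.15 for ANXA1 and -0.15 ± 0.31 for periplakin (ppl), an envelope plakin. Within the number runs, 0 of 35 were called among the low fish, where 0.179% of genes were, and 0 among the high fish, where 0.0995% were (edgeR). At an unadjusted p under 0.05 the counts were 8 and 7 of 35, beside 18.9% and 16.9% of genes. The difference between runs in the age contrast was called by edgeR for 0 of 35 and for 0% of genes, with 10 of 35 and 16.4% of genes at an unadjusted p under 0.05. It was positive for 12 of 13 surface, 7 of 13 shared and 5 of 9 basal identifiers, beside 9918 of 19958 genes. These identifiers were read in the same fish, so they are not independent of each other. Replicate 3 of the low 3-year fish had the lowest surface mean of all fish, 6.06 on the log2 CPM scale. The signs without that fish were not counted. The age value of ITGA3 was 0.11 ± 0.47 in the low and 1.33 ± 0.35 in the high fish (adjusted p = 0.137). That of anxa1c was -0.19 ± 0.41 and 1.19 ± 0.25 (adjusted p = 0.0999). Of 14 muscle markers tested between ages 0 were called by edgeR and 6 had an unadjusted p under 0.05, with a median log2 fold change of 1.09, and their part in the members' values was not tested. Without replicate 3 of the 3-year fish, the count of members called was also 0.

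The comparison of 37.5 nM with 3.75 nM at 1 year asks how the skin differs between rotenone concentrations, and those groups stand in separately deposited tables. Of the 35 identifiers 1 was called, klf4, which fell, where 4.28% of all genes tested were called. The klf4 levels in the 9 fish at 3.75 nM were 4.93, 13.9 and 21.6 CPM as lowest, median and highest, and in the 9 fish at 37.5 nM 4.20, 6.66 and 12.8 CPM. The groups overlapped, with replicates 5 and 7 at 3.75 nM, at 4.93 and 11.5 CPM, among the levels of the other group. The rest of their group had 13.3 CPM or more. The log2 fold change was -1.0 ± 0.24 (edgeR, adjusted p = 0.0342). It was -1.08 ± 0.29 among the low fish alone (adjusted p = 0.0248) and -0.92 ± 0.35 among the high fish alone (adjusted p = 0.946). With no filter on low counts the adjusted p was 0.0525, and the call was lost in 10 of the 18 fits that left out 1 fish, with fold changes from -1.14 to -0.92. Of 14 muscle markers tested in this comparison 0 were called by edgeR and 0 had an unadjusted p under 0.05, with a median of -0.62.

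The other 34 identifiers were not called, and the median log2 fold change of all 35 was 0.05, beside -0.01 over all genes. In the basal layer the values were near 0 for itgb4 (0.16 ± 0.28), itga6b (0.07 ± 0.30), lamb3 (-0.07 ± 0.30) and lama5 (0.01 ± 0.22). The largest was col17a1a at -1.03 ± 0.78 (adjusted p = 0.462), whose mean rests on the few high fish described above. It was -0.32 without replicate 1 at 3.75 nM and -1.99 without replicate 5 at 37.5 nM. The ITGA3 value was 0.45 ± 0.30 (adjusted p = 0.400), from medians of 7.54 and 8.77 CPM, and tp63 and col17a1b each stood at 0.19. Of the shared members, none differed by more than 0.19 on the log2 scale in either direction, the largest being desmoplakin (DSP ENSDARG00000022309) at -0.19 ± 0.33, pkp1a at 0.16 ± 0.19 and DSP ENSDARG00000076673 at 0.15 ± 0.19. In the surface layer, the largest beside klf4 were anxa1b at -0.82 ± 0.39 (adjusted p = 0.218) and TGM1 ENSDARG00000101407 at 0.59 ± 0.34 (adjusted p = 0.315). The abundant icn, ANXA1 and ppl stood at 0.01, 0.09 and -0.12. The 95% interval lay within a 2-fold difference for 30 of the 35 identifiers, the others being col17a1a, ITGA3, TGM1 ENSDARG00000101407, anxa1b and klf4.

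**Figure D2:**
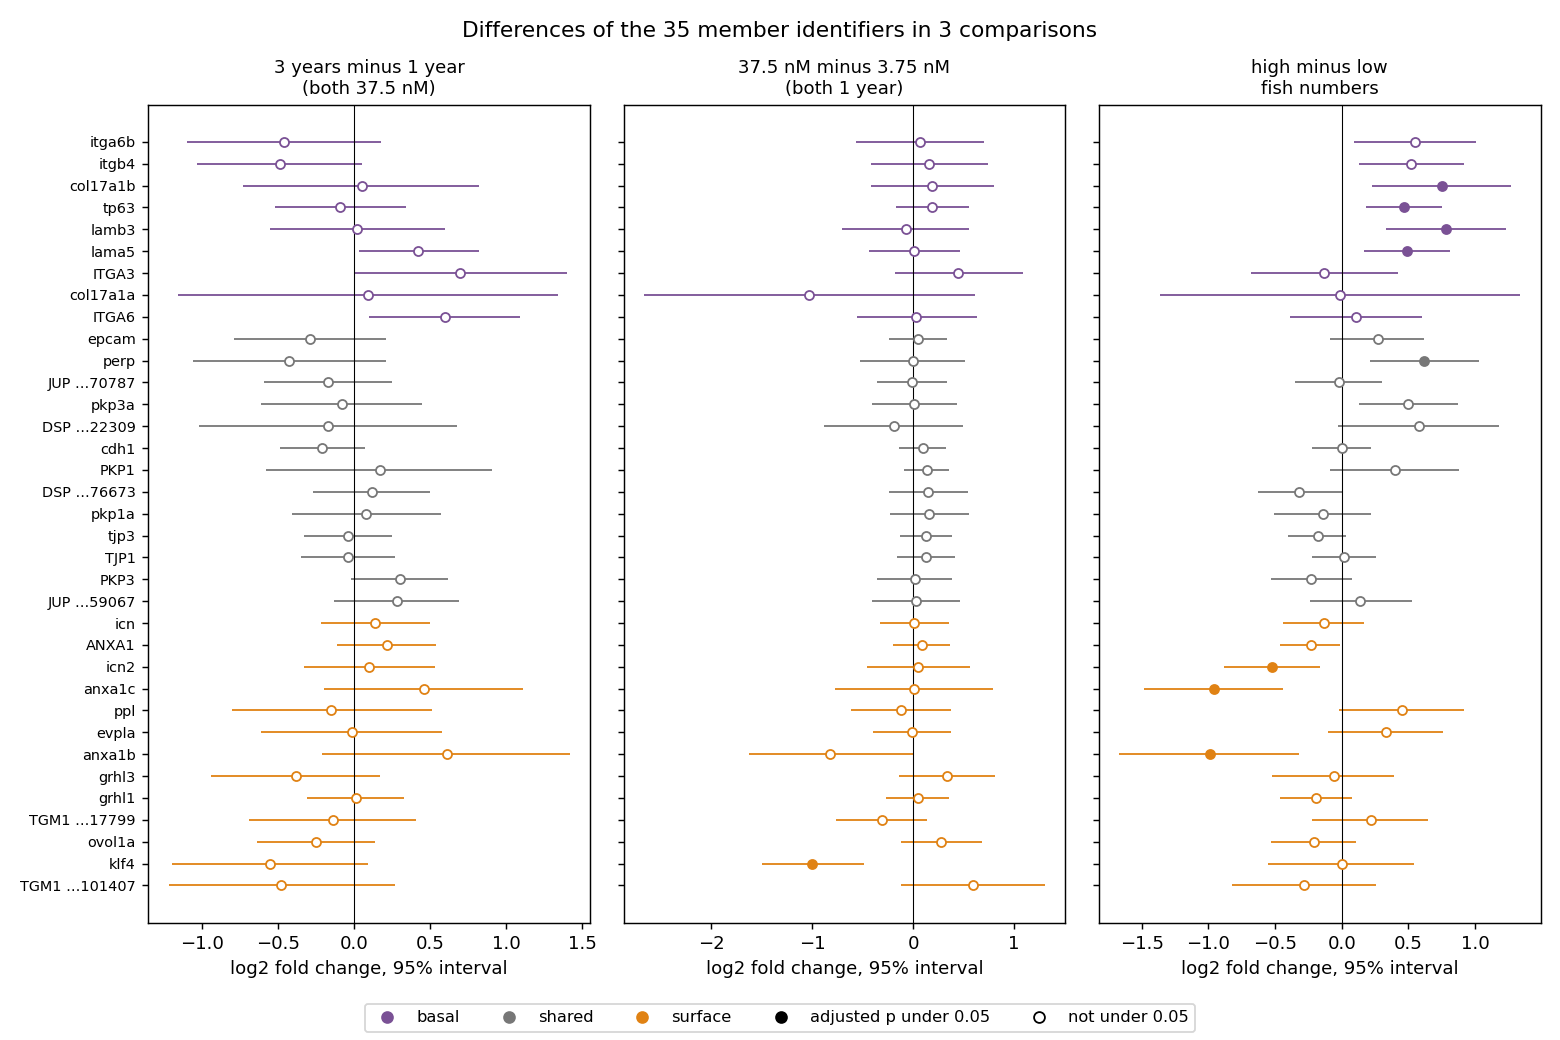
Log2 fold change with its 95% interval of each of the 35 identifiers for 3 years minus 1 year (8 and 9 fish), 37.5 nM minus 3.75 nM (9 and 9 fish) and high minus low fish numbers (14 and 12 fish), with filled points for an adjusted p under 0.05. No point is filled for age, 1 (klf4) for concentration and 8 for the fish numbers.

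The concentration comparison read differently in the low and the high fish. Among the low fish, 6 of 35 were called, a smaller share than the 26.7% of all genes tested that were called. All 6 fell, and how many of the genes called fell was not counted. Among the high fish, 0 of 35 and 0.0% of genes were called by edgeR, and 2 of 35 had an unadjusted p under 0.05, beside 5.26% of genes. The 6 were klf4, anxa1b at -1.32 ± 0.28 (adjusted p = 0.00918), TGM1 ENSDARG00000017799 at -0.83 ± 0.14 (adjusted p = 0.00257), ppl at -0.80 ± 0.18 (adjusted p = 0.0106), perp at -0.73 ± 0.17 (adjusted p = 0.0127) and DSP ENSDARG00000022309 at -1.26 ± 0.35 (adjusted p = 0.0269). In the high fish, anxa1b stood at 0.18 ± 0.21, TGM1 ENSDARG00000017799 at 0.10 ± 0.31, ppl at 0.35 ± 0.32, perp at 0.40 ± 0.30 and DSP ENSDARG00000022309 at 0.42 ± 0.35.

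A test of the difference between runs called 1 of the 35, anxa1b, and 5.71% of all genes. Its log2 interaction was 1.51 ± 0.36 (edgeR, adjusted p = 0.0215). In the low fish, anxa1b had 107, 184, 256 and 262 CPM at 3.75 nM and 69.7, 71.6, 79.7 and 108 CPM at 37.5 nM. In the high fish it had 39.2, 43.5, 44.6, 48.4 and 55.2 CPM at 3.75 nM and 30.6, 51.5, 52.0, 57.1 and 75.4 CPM at 37.5 nM. The low fish at 3.75 nM thus stood above all high 1-year fish of both concentrations, and how many of all genes do so was not counted. For DSP ENSDARG00000022309 the interaction was 1.69 ± 0.53 (adjusted p = 0.0727), for perp 1.14 ± 0.39 (adjusted p = 0.0995) and for ppl 1.16 ± 0.41 (adjusted p = 0.109), none of them called.

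More members were called between the number runs, which the labels give no meaning, than in either comparison above. With group as a term, 8 of 35 were called between high and low fish, or 22.9%, where 14.3% of all genes tested were. With plain library sizes the members called were 4 (2331 genes), without col17a1b, lama5, perp and icn2. With no filter on low counts they were 3 (2289 genes), tp63, lamb3 and anxa1c. The count ran from 3 to 10 when 1 fish was left out. It was 3 in several of these fits, among them that without replicate 4 at 1 year and 37.5 nM, and 10 without replicate 5 at 3.75 nM. The calls of tp63, lamb3 and anxa1c were lost in 0 of those 26 fits, and those of col17a1b, anxa1b, icn2, perp and lama5 in 20, 20, 19, 15 and 8. Basal genes stood among the 5 that rose and surface genes made up the 3 that fell. Of the 9 basal identifiers 4 rose and 0 fell, with a median log2 fold change of 0.49. Of the 13 shared ones 1 rose, with a median of 0.02. Of the 13 surface ones 0 rose and 3 fell, with a median of -0.19. Over all genes 6.73% rose and 7.54% fell, and the median was 0.02. By group alone, the surface values were all negative at 3.75 nM, from -2.13 for anxa1b to -0.27 for evpla. They were mixed at 37.5 nM and 1 year, from -1.14 for anxa1c to 0.80 for ppl. At 3 years most were positive, from -0.28 for ANXA1 to 0.98 for evpla and ppl, and none was called. The runs overlapped in every member, while 0.0202% of all genes tested had no overlap.

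The laminin chain lamb3, a subunit of the laminin that hemidesmosomes bind, had 139, 221 and 366 CPM as lowest, median and highest in the 12 low fish and 83.9, 394 and 761 CPM in the 14 high fish. Of the high fish, 9 stood above every low fish and 1 below. Its log2 fold change was 0.78 ± 0.22 (edgeR, adjusted p = 0.0215). It was 0.82, 0.61 and 0.92 within the fish at 3.75 nM, at 37.5 nM and 1 year, and at 3 years, positive in each group and called in none alone. The other laminin chain, lama5, had 26.0, 42.4 and 85.3 CPM in the low fish and 35.8, 73.1 and 88.5 CPM in the high fish, a log2 fold change of 0.49 ± 0.16 (adjusted p = 0.0361). Within groups it was 0.90 at 3.75 nM (adjusted p = 0.0414), 0.17 at 37.5 nM and 1 year, and 0.41 at 3 years.

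The collagen of hemidesmosomes, col17a1b, had 273, 659 and 834 CPM in the low fish and 228, 975 and 2183 CPM in the high fish, with 8 high fish above every low fish. Its log2 fold change was 0.75 ± 0.25 (adjusted p = 0.0486), and within groups it was 0.07 at 3.75 nM, 0.95 at 37.5 nM and 1 year, and 1.29 at 3 years. With RLE in place of TMM scaling, edgeR did not call col17a1b (adjusted p = 0.0513). The tp63 levels were 267, 437 and 547 CPM in the low fish and 273, 567 and 886 CPM in the high fish. Of the high fish, 8 stood above every low fish. The tp63 log2 fold change was 0.47 ± 0.14 (adjusted p = 0.0257), and 0.33, 0.44 and 0.65 in the same order of groups. Beside them, itgb4 at 0.52 ± 0.19 (adjusted p = 0.0668) and itga6b at 0.55 ± 0.22 (adjusted p = 0.101) were not called by edgeR. DESeq2 called itgb4 (adjusted p = 0.0391).

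**Figure D3:**
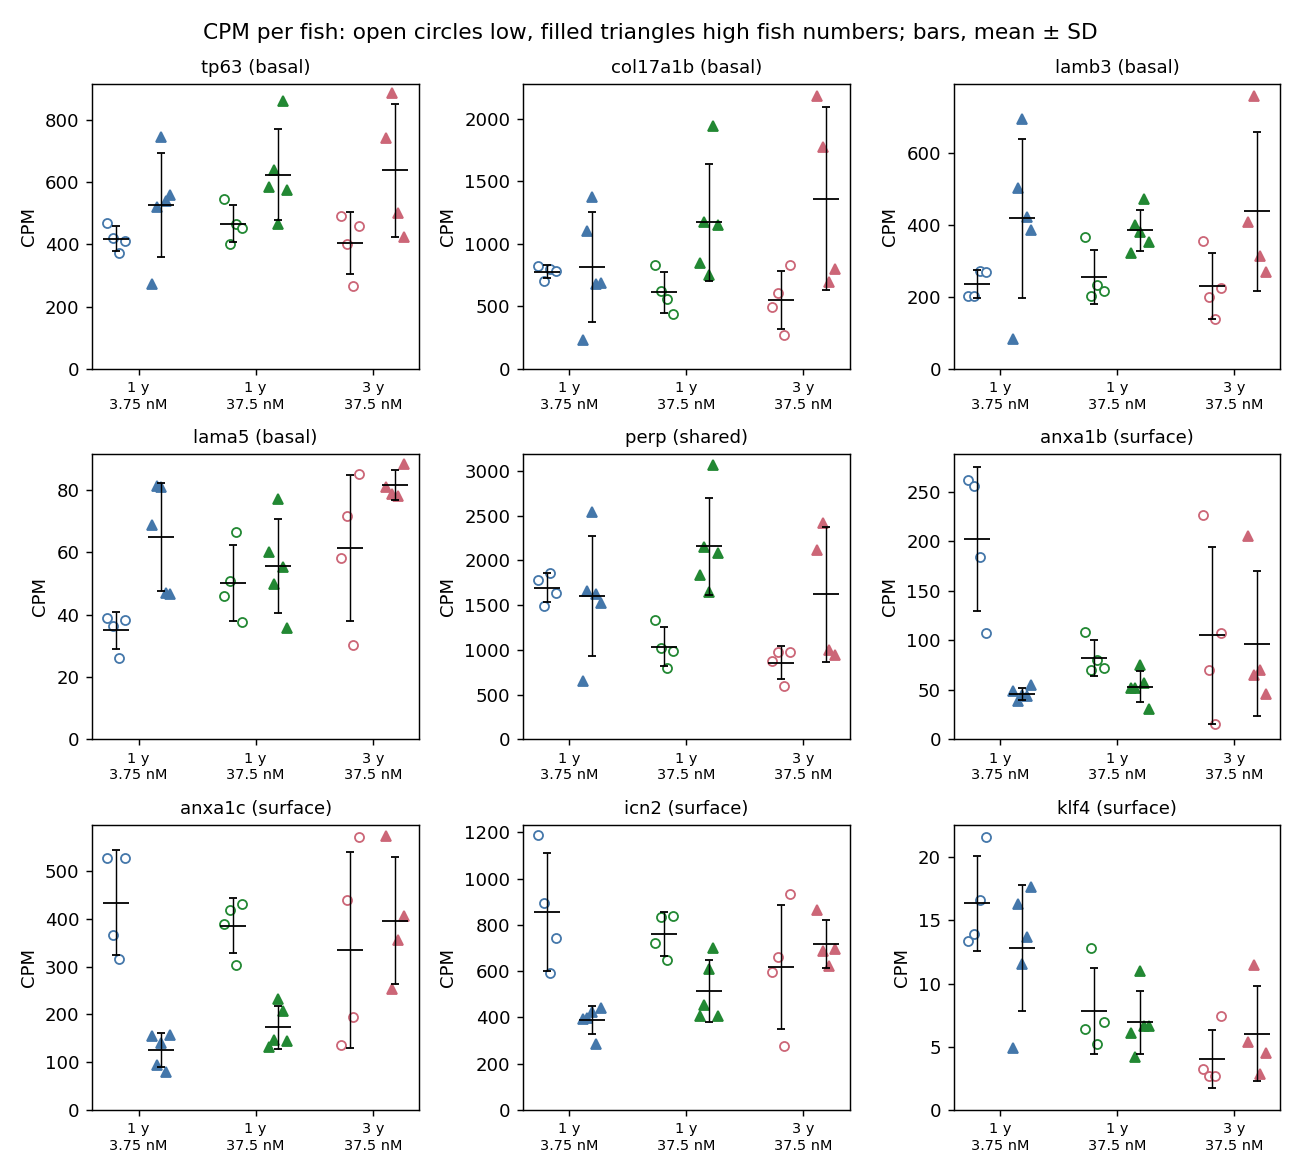
CPM of the 9 called genes in each fish, by group, with open circles for low and filled triangles for high fish numbers (4 or 5 fish each) and bars for mean ± SD. The low fish at 3.75 nM have 107 to 262 CPM of anxa1b and the high fish of that group 39.2 to 55.2 CPM, while perp in that group has medians of 1711 and 1621 CPM.

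Of the shared members perp rose, with 594, 1005 and 1858 CPM in the low fish and 647, 1749 and 3065 CPM in the high fish. Its log2 fold change was 0.62 ± 0.20 (adjusted p = 0.0400), from -0.08 at 3.75 nM, 1.07 at 37.5 nM and 1 year (adjusted p = 0.0221), and 0.91 at 3 years. The value at 3.75 nM had an SE of 0.31, so its sign is not resolved. The plakophilin pkp3a had 0.50 ± 0.18 (adjusted p = 0.0639) and DSP ENSDARG00000022309 0.58 ± 0.30 (adjusted p = 0.195), while JUP ENSDARG00000070787 stood at -0.02 ± 0.16, cdh1 at 0.00 ± 0.11 and TJP1 at 0.02 ± 0.12. DESeq2 called pkp3a (adjusted p = 0.0404). At 37.5 nM and 1 year, DSP ENSDARG00000022309 had 673, 878, 937 and 1829 CPM in the low fish and 1391, 2599, 2667, 2826 and 3975 CPM in the high fish.

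In the surface layer 2 of the 3 annexins, anxa1b and anxa1c, and the S100 protein icn2 fell. The anxa1c levels were 136, 403 and 572 CPM in the 12 low fish and 78.9, 155 and 573 CPM in the 14 high fish. Its log2 fold change was -0.96 ± 0.25 (adjusted p = 0.0144). At 3.75 nM the low fish had 316, 365, 527 and 527 CPM and the high fish 78.9, 93.5, 141, 154 and 156 CPM. At 37.5 nM and 1 year the low fish had 304, 388, 418 and 431 CPM and the high fish 132, 144, 147, 207 and 233 CPM. At 3 years the low fish had 136, 195, 438 and 572 CPM and the high fish 253, 355, 405 and 573 CPM. In the 2 groups of 1-year fish the fold change was called alone, at -1.80 (adjusted p = 0.0112) and -1.14 (adjusted p = 0.0166), and at 3 years it was 0.24 ± 0.46.

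The anxa1b fold change was -0.99 ± 0.33 (adjusted p = 0.0435), and within groups -2.13 (adjusted p = 0.00692), -0.61 and -0.12. At 3 years anxa1b had 15.9, 70.4, 107 and 227 CPM in the low fish and 46.3, 65.4, 70.3 and 205 CPM in the high fish. The icn2 levels were 277, 733 and 1188 CPM in the low fish and 285, 446 and 865 CPM in the high fish, a log2 fold change of -0.52 ± 0.18 (adjusted p = 0.0493). Within groups icn2 stood at -1.14 (adjusted p = 0.0173), -0.55 and 0.21 ± 0.33. The more abundant icn was at -0.13 ± 0.15 and ANXA1 at -0.23 ± 0.11 (adjusted p = 0.142). The envelope plakins had positive values that were not called, 0.45 ± 0.23 for ppl (adjusted p = 0.190) and 0.33 ± 0.21 for evpla (adjusted p = 0.293). Of the surface regulators none was called over all fish, with grhl1 at -0.19, grhl3 at -0.06, ovol1a at -0.21 and klf4 at -0.00.

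By group alone, 5 of 35 were called between runs at 3.75 nM, where 8.24% of genes were, 4 of 35 at 37.5 nM and 1 year, where 7.94% were, and 0 of 35 at 3 years, where 0.0% were (edgeR). At 3 years 11 of 35 had an unadjusted p under 0.05, beside 11.6% of genes. At 3.75 nM the fifth gene beside lama5, anxa1b, anxa1c and icn2 was grhl3, which fell with a log2 fold change of -0.87 ± 0.20 (adjusted p = 0.0311). In the other groups grhl3 was not called, at -0.09 ± 0.30 for 37.5 nM and 1 year and 0.92 ± 0.31 for 3 years (adjusted p = 0.362). At 37.5 nM and 1 year the genes beside perp and anxa1c were DSP ENSDARG00000022309 at 1.32 (adjusted p = 0.0485) and tjp3 at -0.47 (adjusted p = 0.0369).

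For each fish, the mean log2 CPM of the 9 basal identifiers minus that of the 13 surface ones gives their balance, as a value with no test. In the low fish it ran from -1.39 to 0.11 with a median of -0.88, and in the high fish from -0.84 to 0.56 with a median of -0.22. At 3.75 nM the medians were -1.17 in the low and -0.23 in the high fish, and at 37.5 nM and 1 year -0.88 and -0.22. At 3 years they were -0.31 and -0.32. In the 1-year groups the low and high fish ran from -1.39 to -0.94 and -0.84 to 0.56 for 3.75 nM. For 37.5 nM they ran from -1.18 to -0.64 and -0.62 to 0.28, which nearly meet. The runs overlapped in the oldest fish. Other gene sets were not compared. Each identifier weighs the same in these means, also the scarce ITGA6 and col17a1a. The fish at 0.56, 0.28 and -0.94 had 23.2, 17.7 and 31.1 CPM of col17a1a, and the balance without that gene was not computed.

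**Figure D4:**
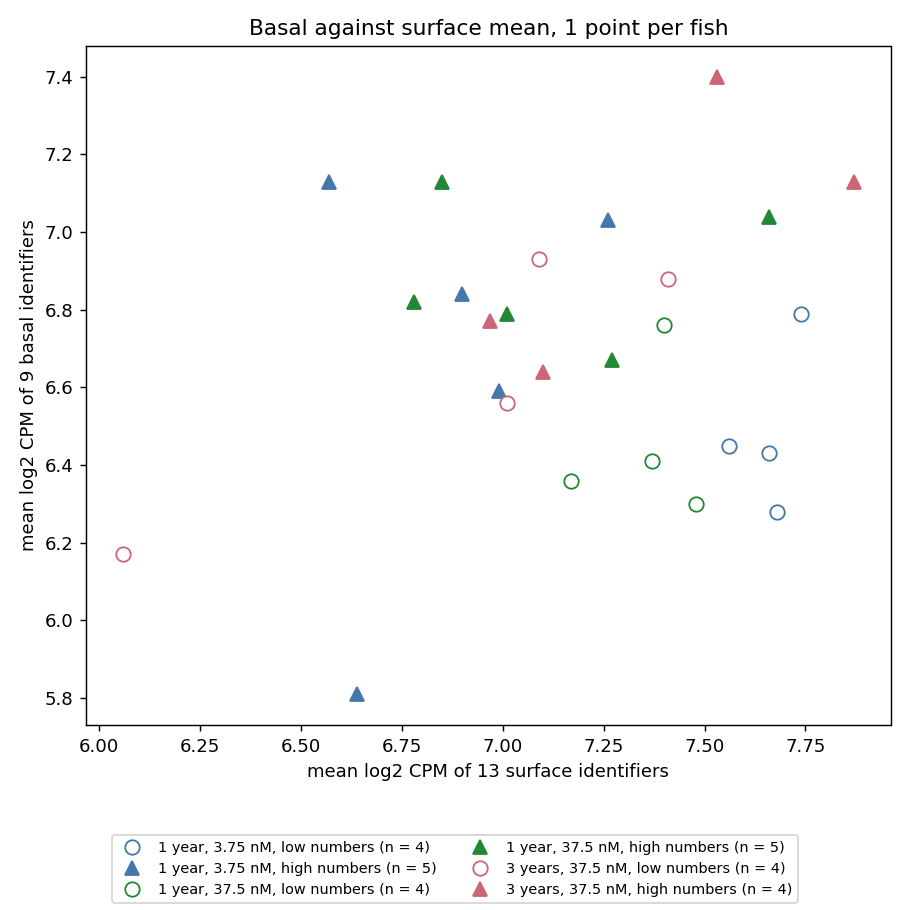
Mean log2 CPM of the 9 basal identifiers against that of the 13 surface identifiers, with 1 point per fish, colours for groups, open circles for low and filled triangles for high fish numbers. The low 1-year fish have surface means of 7.17 to 7.74, a range that also holds fish of the other kinds; the highest surface mean, 7.87, is that of the 3-year replicate 5 of the high run, and the 3-year replicate 3 lies at the lower left, at a surface mean of 6.06.

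Markers of some other cell types differed between the runs, where edgeR called 14.3% of all genes tested, 6.73% higher and 7.54% lower. Of 20 dermal fibroblast markers tested, 9 were higher in the high fish and 0 lower, with a median log2 fold change of 0.56. Among them COL1A2 had 2.00 ± 0.45 (edgeR, adjusted p = 0.00582). The summed level of that list ran from 3390 to 22800 CPM in the low 1-year fish and from 8270 to 59900 CPM in the high 1-year fish, and at 3 years from 6270 to 18000 and from 13000 to 36800 CPM. Of 11 scale osteoblast markers 7 were higher and 0 lower, with a median of 0.96, among them bglap, which encodes osteocalcin, at 3.1 ± 0.62. That list summed to 159 to 4240 CPM in the low and 259 to 9290 CPM in the high 1-year fish, and at 3 years to 297 to 1160 and 1830 to 7170 CPM. Of 8 ionocyte markers 3 were lower and 0 higher, among them foxi3b, an ionocyte regulator, at -1.77 ± 0.34 (adjusted p = 0.00223). That list summed to 50 to 114 CPM over all 26 fish. Of 16 keratinocyte markers tested 2 were lower, krt17 at -1.57 ± 0.20 and krt4 at -0.63 ± 0.17, and 0 higher, with a median of -0.25. At 3.75 nM the keratinocyte list summed to 60100 to 76900 CPM in the low and 30700 to 43800 CPM in the high fish. At 37.5 nM and 1 year the sums were 41500 to 61800 and 39000 to 62600 CPM. At 3 years they were 28600 to 60600 and 43200 to 77000 CPM. Of 15 muscle markers tested none was called and 1 had an unadjusted p under 0.05, with a median of -0.38. Of 12 endothelial markers 0 were called, and of 17 leukocyte markers 1 was higher and 1 lower. Of 9 mucous cell, 8 melanophore and 9 xanthophore and iridophore markers 1 each was lower. Of 6 erythrocyte and 12 nerve and Schwann cell markers tested 1 each was higher. The part of these cell types in the basal and surface values was not tested.

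Other genes of the same structures were counted from lists chosen with earlier results of these data known. Of 26 further desmosome and hemidesmosome genes tested between runs, 6 rose and 0 fell, with a median of 0.24, beside the 6.73% and 7.54% of all genes that did. The desmosomal cadherins dsc2l and dsg2.1 rose by log2 fold changes of 1.43 ± 0.26 (adjusted p = 0.00154) and 1.05 ± 0.21 (adjusted p = 0.00289), from means of 376 to 984 and 890 to 1800 CPM. Anchoring fibril collagen col7a1 rose by 1.08 ± 0.18. Of 28 further adherens and tight junction genes 2 rose and 3 fell, among them oclnb, an occludin, at 0.67 ± 0.17 and VCL, vinculin, at -0.66 ± 0.14. Of 23 further epidermal regulators 3 rose and 2 fell, with GRHL2 at 0.59 ± 0.18, EHF at -0.89 ± 0.17 and GATA3 at -0.38 ± 0.09. Of 35 further barrier enzymes and envelope genes 1 rose and 1 fell. Between ages edgeR called 0 genes of these 4 lists, in which 2, 9, 8 and 10 genes in the order above had an unadjusted p under 0.05, beside 20.4% of all genes, and between concentrations 1 was, the membrane protease tmprss4a, which rose by 1.06 ± 0.27 (adjusted p = 0.0393).

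Partner genes were related across the 26 fish with group means removed, in 8 pairs, each with 100000 permutations of fish within groups, two-sided and adjusted over the 8. The amount of keratinocyte RNA in each fish was not removed from these values. Whether r was higher for partners than for other pairs of keratinocyte genes was not tested. The envelope plakins evpla and ppl had r = 0.957 (Spearman's rho 0.923, permutation p = 1e-05, adjusted p = 2e-05), and the integrin partners itga6b and itgb4 r = 0.942 (rho 0.906, adjusted permutation p = 2e-05). In itgb4 and lamb3, an integrin and a chain of its ligand, r was 0.824 (rho 0.803), and in DSP ENSDARG00000022309 and JUP ENSDARG00000070787 it was 0.806 (rho 0.734), each with an adjusted permutation p of 2e-05. The raw permutation p of 1e-05 is the smallest these permutations can give. These 4 relations had r of 0.942, 0.849, 0.849 and 0.775 in the low fish and 0.969, 0.951, 0.876 and 0.922 in the high fish. Without the 2 fish farthest from the median of the first gene they were 0.939, 0.913, 0.796 and 0.818.

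**Figure D5:**
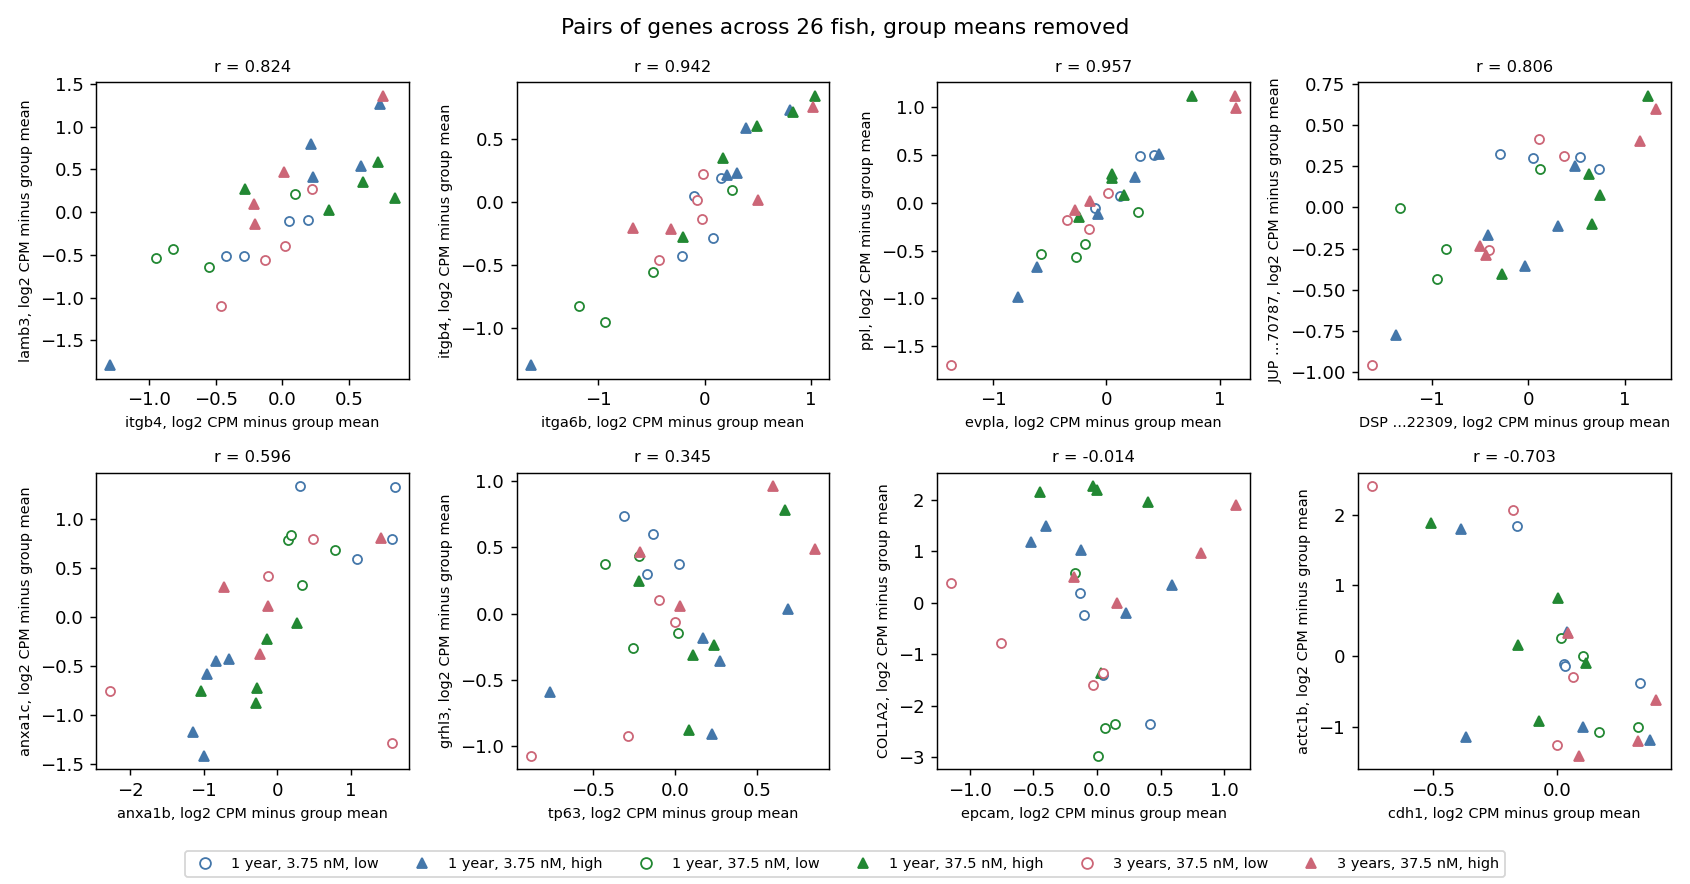
Log2 CPM of 8 gene pairs in 26 fish, each value minus its group mean, with colours for groups, open circles for low and filled triangles for high fish numbers and Pearson's r above each panel. The evpla and ppl points lie closest to a line, with r = 0.957, and those of epcam and COL1A2 show none, with r = -0.014.

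The annexins anxa1b and anxa1c had r = 0.596 over all fish (rho 0.707, adjusted permutation p = 0.00548) and -0.045 within the low fish and 0.600 within the high fish. With run means also removed r was 0.165 (adjusted permutation p = 0.739), so the pooled relation did not hold after that step. In the low run, the 3-year replicate 1 had the highest anxa1b of its group, 227 CPM, and the lowest anxa1c, 136 CPM. The low-run r without that fish was not computed. For tp63 and grhl3 r was 0.345 (rho 0.150, adjusted permutation p = 0.137). For epcam and the dermal COL1A2 it was -0.014 (rho -0.201, adjusted permutation p = 0.934), but -0.677 in the low fish (permutation p = 0.00166) and -0.010 in the high fish. E-cadherin and the muscle actin were inversely related, with r = -0.703 for cdh1 and actc1b (rho -0.595, adjusted permutation p = 0.000448), -0.791 in the low fish and -0.546 in the high fish (permutation p = 0.0897). Without the 2 fish farthest from the median of cdh1 it was -0.551.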

How the data were processed

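Per the labels, libraries from the skin RNA of 26 fish were made with a TruSeq RNA kit, version 2. The submitters' processing notes name GRCz10 as the build, featureCounts 1.4.6-p4, STAR 2.4.1d and CASAVA 1.8.2. They give no strand setting. Deposited by the authors were whole-number counts per Ensembl gene, with no normalization, and RPKM values. The deposited RPKM values were divided by a depth that repeats every 50 genes, so they served only to derive gene lengths, from genes with at least 20 counts. The lengths were averaged over the fish, and the error that the repeating depth leaves in them was not measured. The order of genes with close levels per kb, such as ANXA1 and icn2, is therefore uncertain.

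Counts were tested with edgeR 4.0.16 (TMM, filterByExpr, robust quasi-likelihood fit and F test; R 4.3.3). Benjamini-Hochberg adjustment ran over all genes tested, with a threshold of 0.05. DESeq2 1.42.0 was an alternative. Levels are TMM CPM over all 26 fish. All 35 identifiers passed the filter. Fits were tested on simulated data with known changes. Relations used log2 CPM with a prior count of 2.

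The members, gene lists and tests were chosen with earlier results of these data known. Described singly were the called members, the 3 most abundant of each layer and the 3 with the largest differences of each layer in age and concentration, 24 in all. Other genes named from the lists, evpla and the remaining members were chosen after their values were seen. Groups came from the age and perturbation labels. P-values measure the spread between fish. Alternatives were other scalings, filters, DESeq2, the run as a term, each run or group alone, and each fish left out in turn.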

Additional observations from a re-analysis of the deposited data

Results flagged for a closer look

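In 13 of 105 tests of a member within a group, 1 fish stood far from the others of its group, where chance flags about 1 in 20 independent tests. These tests are not independent, since the members were read in the same fish. The share over all genes was not counted, so 13 is not read as an excess. Of the 13 flags, 5 were lowest values of the 3-year replicate 3, the fish with the highest sum of muscle markers. It had 30.4 CPM of lama5 (others 58.2 to 88.5), 7.22 of pkp1a (20.1 to 31.3), 0.735 of TGM1 ENSDARG00000101407, 277 of icn2 (596 to 933) and 48.8 of grhl1 (87.4 to 129). A further 5 were lowest values of replicate 5 at 1 year and 3.75 nM. It had 228 CPM of col17a1b (others 681 to 1370), 883 of itga6b (2360 to 4780), 467 of pkp3a, 647 of perp and 4.93 of klf4 (11.5 to 21.6). That fish had the highest summed dermal fibroblast markers of its group, 53300 CPM, and the highest summed scale osteoblast markers, 8420 CPM. The part of muscle, dermis and scale in these values was not tested.

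The remaining 3 were highest values. Replicate 5 at 1 year and 37.5 nM had 17.7 CPM of col17a1a, where the others had 1.17 to 3.50. Replicate 9 at 1 year and 3.75 nM had 16.6 CPM of ITGA3, with 4.71 to 8.82 in the others. Replicate 8 at 1 year and 37.5 nM had 100 CPM of TGM1 ENSDARG00000017799, with 38.4 to 53.3 in the others.

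The difference of anxa1b between rotenone concentrations was itself different between the number runs, with a log2 interaction of 1.51. For this interaction edgeR called 1 of the 35 identifiers, beside 5.71% of all genes tested.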

How the results depend on the processing

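Between ages, the count of 241 genes called was 1076 with DESeq2, 398 with the run as a term, 34 and 19 in the low and high fish alone, and 64 to 712 when 1 fish was left out. The count of 0 members held in each of these. Between concentrations, 804 genes became 209 with no filter, 1848 with DESeq2, 1396 with the run as a term, 5024 in the low fish and 0 in the high fish, and 0 to 1661 with 1 fish left out, with 0 without replicate 7 at 1 year and 37.5 nM. The 1 member called became 0 with no filter, 6 in the low fish and 0 in the high fish, and 0 to 1 with 1 fish left out. Between runs, 2823 genes became 2331 with plain library sizes, 2289 with no filter, 1581, 1513 and 0 in the fish at 3.75 nM, at 37.5 nM and 1 year, and at 3 years, and 2023 to 3662 with 1 fish left out. The 8 members became 4 with plain library sizes, 3 with no filter, 5, 4 and 0 in the same single groups, and 3 to 10 with 1 fish left out. The count was 3 in several of these fits, among them that without replicate 4 at 1 year and 37.5 nM, and 10 without replicate 5 at 3.75 nM. Among the members called between runs, the signs turned for perp (-0.08 ± 0.31, fish at 3.75 nM alone) and, at 3 years alone, for anxa1c (0.24 ± 0.46) and icn2 (0.21 ± 0.33). Each of these values was smaller than its SE. The relation of anxa1b with anxa1c fell to 0.165 with run means removed. The cause of these changes was not tested. Calls of col17a1b, anxa1b, icn2, perp and lama5 were lost in 20, 20, 19, 15 and 8 of the 26 fits that left out 1 fish, and those of tp63, lamb3 and anxa1c in 0. No paired analysis was possible because the replicate numbers follow accession order and the columns carry no pairing. Limits: groups of 8 or 9 fish, separate deposited tables for the concentrations, and bulk skin, in which summed dermal and muscle markers varied between fish.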
